A study of Mus musculus with 4 samples.

Results

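The genes described here encode the proteins that turn cholesterol into adrenal steroid hormones, together with aldo-keto reductases expressed with them: *Star*, *Cyp11a1*, *Hsd3b1*, *Hsd3b6*, *Cyp21a1*, *Cyp11b1*, *Cyp11b2*, *Cyp17a1*, *Akr1cl* and *Akr1b7*. The 10 genes were taken by symbol from the 52636 gene identifiers counted in each library, and all 10 were found. The set was chosen from earlier results of the same comparison between control and *Eya1*cKO libraries, so the difference between genotypes is a description of these genes. No p-value of theirs is given, and the count that passed the test stands only beside that of all genes.

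RNA-seq was performed on 2 control and 2 *Eya1*cKO libraries, each from 5000 tdTomato+ cells sorted by FACS from mouse kidneys at about E12.5 to E12.75, collected 48 h after tamoxifen was first given. Every embryo carried the *Eya1*CreER allele, in which a tamoxifen-activated Cre is expressed from the *Eya1* locus, and the tdTomato reporter. Control embryos had the genotype *Eya1*CreER/+; tdTomato, and *Eya1*cKO embryos were in addition *Eya1* fl/fl. The sorted population is therefore defined by *Eya1*-driven Cre in the dissected tissue and not by a renal surface marker. Kidneys of several embryos were pooled before sorting, and the labels and the methods of the study differ in how many (6 kidneys per genotype from 4 females, or 12 kidneys from 6 embryos of 5 females). The libraries of a genotype were separate portions of pooled cells sorted at the same time. The spread between them therefore does not measure variation between embryos, and neither do the p-values below, which rest on it.

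In the adrenal cortex and the gonads, the START-domain protein *Star* carries cholesterol to the inner mitochondrial membrane, where *Cyp11a1* cleaves its side chain to give pregnenolone. The 3-beta-hydroxysteroid dehydrogenases convert pregnenolone to progesterone, *Cyp21a1* hydroxylates it to deoxycorticosterone, and *Cyp11b1* or *Cyp11b2* completes corticosterone or aldosterone. *Cyp17a1* diverts the pathway towards androgens and, in species that make it, cortisol. The developing adrenal gland lies next to the embryonic kidney.

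Reads on the 10 genes were 631 and 640 in the control libraries and 16526 and 12637 in the *Eya1*cKO libraries, although the *Eya1*cKO libraries held fewer reads (22239293 and 17457452 gene counts against 35411905 and 37999342). On the CPM scale (counts brought to a common library size with edgeR's TMM factors), the genes summed to 18.1 and 17.1 CPM in the control libraries and to 731 and 720 CPM in *Eya1*cKO, which was 0.0743% and 0.0724% of all gene counts. Of the 10 genes, 7 passed the filter on low counts, and all 7 were above the controls in both *Eya1*cKO libraries with an edgeR adjusted p under 0.05. Across the 19041 genes tested, 9.56% were called in either direction, 5.15% higher and 4.41% lower, and 25.3% had both *Eya1*cKO libraries above both controls. Since the genes were chosen by this comparison, nothing is read from their count, and it was 1 of 7 when either control 1 or control 2 was left out. *Hsd3b1*, *Cyp21a1* and *Akr1cl* passed the filter only through their *Eya1*cKO libraries. Reads on no gene made up 12.9% to 13.9% of all records in control and 20.9% to 22.7% in *Eya1*cKO, unaligned reads 6.32% to 6.69% and 12.7% to 12.9%, and their part in the result was not tested. The other 3 genes, *Hsd3b6*, *Cyp11b2* and *Cyp17a1*, had at most 3 reads in every library. In sorted bulk RNA, a larger number of cells of a type and more RNA per cell cannot be told apart.

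**Figure D1:**
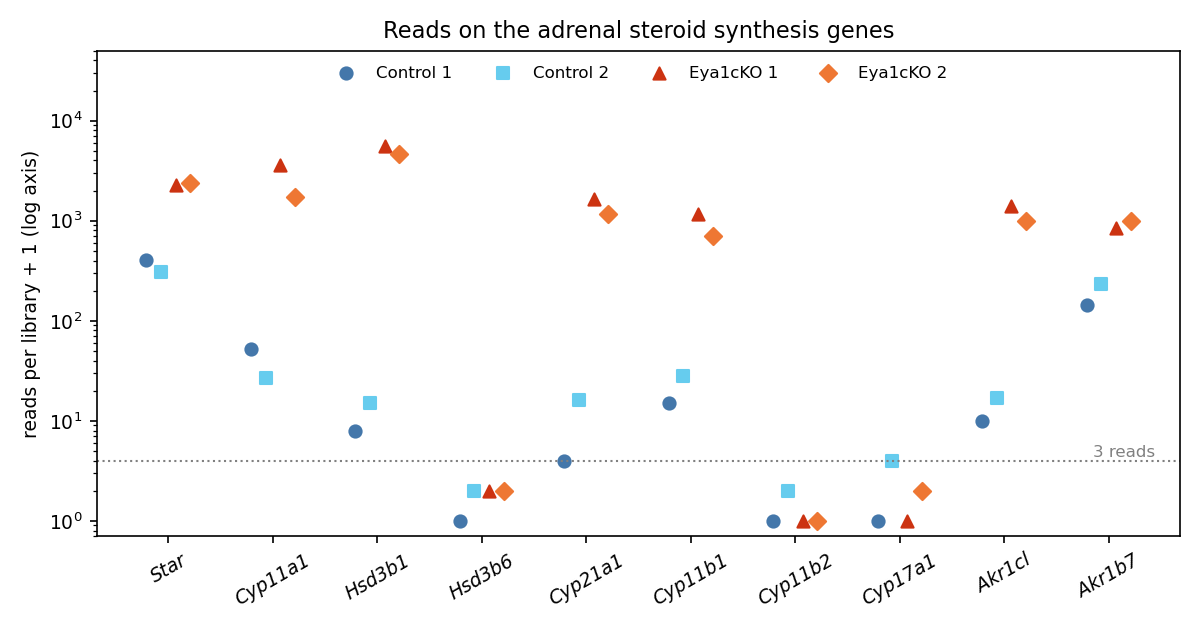
Reads counted on each of the 10 genes (x axis) in each of the 4 libraries, as reads + 1 on a log axis, with 1 point per library and a dotted line at the 3 reads taken as the limit of detection. For 7 genes both *Eya1*cKO points lie above both control points, from *Hsd3b1* with 5569 and 4694 reads to *Akr1b7* with 844 and 1003, and *Hsd3b6*, *Cyp11b2* and *Cyp17a1* lie at or below the line in all libraries.

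The entry step of the pathway was already detected in control. *Star*, the cholesterol transporter, had 404 and 304 reads in the control libraries and 2293 and 2360 reads in the *Eya1*cKO libraries, in the order 1 and 2 kept throughout. Its mean level was 9.84 ± 2.44 CPM in control and 118 ± 23.4 CPM in *Eya1*cKO (SD, n = 2 for each), a log2 fold change of 3.58 (SE 0.25). *Star* lies on chromosome 8 (chr8:25806555-25815982 of GRCm38, plus strand) and shares no stretch of the read length with another annotated transcript. *Cyp11a1*, the side-chain cleavage enzyme that commits cholesterol to steroid synthesis, had 51 and 26 reads in the control libraries and 3591 and 1710 reads in the *Eya1*cKO libraries. This was 1.08 ± 0.542 CPM against 128 ± 43.4 CPM (SD, n = 2), a log2 fold change of 6.93 (SE 0.47). Both *Eya1*cKO libraries lay far above the controls, and *Eya1*cKO 1 lay above *Eya1*cKO 2. Without control 1 the log2 fold change of *Cyp11a1* was 7.52. The gene lies at chr9:58006411-58027023 on the plus strand, and 3.02% of its exonic length overlaps the gene *Gm17322* on the same strand (0, 0, 128 and 3 reads).

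Of the 3-beta-hydroxysteroid dehydrogenases, *Hsd3b1* held most of the reads in *Eya1*cKO, whereas in control it was as low as its paralog *Hsd3b2*. It had 7 and 14 reads in the control libraries and 5569 and 4694 reads in the *Eya1*cKO libraries, or 0.200 and 0.374 CPM against 246 and 268 CPM. The log2 fold change was 9.77 (SE 0.24). Its close paralog *Hsd3b6*, the form that in adult mice is found in the aldosterone-producing zone, had 0 and 1 reads in control and 1 read in each *Eya1*cKO library. Both genes lie on the minus strand of chromosome 3, *Hsd3b1* at chr3:98852194-98859794 and *Hsd3b6* at chr3:98805504-98814443, and their coding sequences are identical at 90% of 1119 aligned bases. Despite this likeness, 1.35% of the 75-base words of *Hsd3b1* transcripts and 7.61% of those of *Hsd3b6* also occur in transcripts of other genes, so most of each transcript is distinct at the read length. Among the other paralogs, *Hsd3b2* had 27 and 6 reads in the control libraries and 21 and 50 reads in the *Eya1*cKO libraries. *Hsd3b3* had 124 reads in *Eya1*cKO 1 and 0 in *Eya1*cKO 2, against 3 and 1 in control. *Hsd3b4*, *Hsd3b5* and *Hsd3b7* had no read in any library. Other genes overlap 62.0% of the exonic length of *Hsd3b7* on the same strand and 62.4% on the opposite strand, and reads ambiguous between genes were not counted, so its 0 sets no limit on its level. For *Hsd3b4* and *Hsd3b5* a count of 0 covers levels up to 0.0859 and 0.0801 CPM in the control libraries and 0.133 and 0.171 CPM in the *Eya1*cKO libraries (3 counts, counting error only). How much of their transcripts is distinct at the read length was not checked, so reads lost to multiple alignment are not covered.

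The bases upstream of these neighbouring copies are shown because one copy had the highest level of the set and the other was at the limit of detection. RefSeq's GRCm38.p6 promoter windows give the 120 bases that end just before the transcription start on the minus strand, for *Hsd3b1* at chr3:98859795-98859914 and for *Hsd3b6* at chr3:98814444-98814563. Neither holds a motif searched for here, so both are printed 5′ to 3′ in lower case.
Hsd3b1: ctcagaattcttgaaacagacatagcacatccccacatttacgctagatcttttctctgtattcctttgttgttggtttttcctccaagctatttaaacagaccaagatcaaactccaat
Hsd3b6: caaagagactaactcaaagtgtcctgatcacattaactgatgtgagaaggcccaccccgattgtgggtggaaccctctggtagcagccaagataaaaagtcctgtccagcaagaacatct
Over the full 250 bases upstream, 54.9% of 226 aligned bases were identical, against 90% in the coding sequence.

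The last steps to corticosterone were present in *Eya1*cKO. *Cyp21a1*, the steroid 21-hydroxylase, had 3 and 15 reads in the control libraries and 1658 and 1175 reads in the *Eya1*cKO libraries. The levels were 0.243 ± 0.223 CPM and 70.2 ± 4.52 CPM (SD, n = 2), a log2 fold change of 8.12 (SE 0.42), and control 1 was at the limit of detection. The size of this difference therefore rests on few control reads, and it was 7.42 without control 1 and 9.58 without control 2. *Cyp21a1* lies at chr17:34801348-34804561 on the minus strand, and 12.9% of its 75-base words also occur in the pseudogene *Cyp21a2-ps* or in *Tnxa*. The pseudogene had 0 reads in both controls and 102 and 83 in *Eya1*cKO, and whether these come from it or from *Cyp21a1* was not tested.

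*Cyp11b1*, the 11-beta-hydroxylase that makes corticosterone, had 14 and 27 reads in the control libraries and 1172 and 698 reads in the *Eya1*cKO libraries. Its level was 0.561 ± 0.226 CPM in control and 45.8 ± 8.54 CPM in *Eya1*cKO (SD, n = 2), a log2 fold change of 6.35 (SE 0.46). *Cyp11b2*, the aldosterone synthase, had 0 and 1 reads in control and none in *Eya1*cKO. The genes are neighbours on the minus strand of chromosome 15, *Cyp11b1* at chr15:74834125-74841643 and *Cyp11b2* at chr15:74851010-74856318. Their coding sequences are identical at 87.1% of 1503 aligned bases, and 14.2% of the 75-base words of *Cyp11b2* occur in *Cyp11b1*, so most of *Cyp11b2* is distinct at the read length. *Cyp17a1*, the 17-alpha-hydroxylase and 17,20-lyase of androgen synthesis, had 0 and 3 reads in the control libraries and 0 and 1 reads in the *Eya1*cKO libraries. It lies at chr19:46667165-46673172 on the minus strand and shares no 75-base word with another gene. The reads thus covered the route from cholesterol to corticosterone, while the enzymes particular to aldosterone and to androgens were not detectable above 3 reads at this depth.

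The aldo-keto reductases of the set differed in their control level. *Akr1b7*, which detoxifies the aldehyde released by side-chain cleavage and is abundant in the adrenal cortex, had 143 and 233 reads in the control libraries and 844 and 1003 reads in the *Eya1*cKO libraries. This was 5.16 ± 1.5 CPM and 47.3 ± 14 CPM (SD, n = 2), a log2 fold change of 3.15 (SE 0.37), which was the smallest of the 7 and next to that of *Star*. *Akr1cl* had 9 and 16 reads in the control libraries and 1398 and 995 reads in the *Eya1*cKO libraries. Its level was 0.343 ± 0.120 CPM and 59.3 ± 3.64 CPM (SD, n = 2), a log2 fold change of 7.41 (SE 0.40). *Akr1b7* lies at chr6:34412334-34423142 on the plus strand, and 27.2% of its exonic length overlaps *Gm13857* on the opposite strand, which had 1 read in all libraries together. *Akr1cl* lies at chr1:65012689-65032759 on the minus strand, with 11.7% of its exonic length opposite *Gm8550*, which had no read.

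Read per length, the order of the genes was not the same in the genotypes. Levels were set side by side as CPM per kb of exonic length. This length joins the exons of all annotated transcripts, 6 for *Akr1cl* (4209 bases) and 1 for *Akr1b7* (1281 bases). The order within a genotype therefore depends on the annotation as well as on the reads. In *Eya1*cKO, *Hsd3b1* stood highest at 139 CPM per kb (133 and 144 in the libraries). *Akr1b7* (36.9), *Cyp21a1* (32.8), *Star* (28.7) and *Cyp11a1* (26.7) followed, and the library values of each overlapped those of the next. *Cyp11b1* at 14.5 and *Akr1cl* at 14.1 CPM per kb came last and overlapped each other. In control, *Akr1b7* (4.03) was above *Star* (2.39 CPM per kb), and the other 5 tested genes lay between 0.0814 (*Akr1cl*) and 0.224 CPM per kb (*Cyp11a1*), where the libraries of neighbours in this order overlapped but those of *Akr1cl* lay below those of *Cyp11a1*, *Cyp11b1* and *Hsd3b1*. *Star* and *Akr1b7* thus led in control, and *Hsd3b1* in *Eya1*cKO.

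**Figure D2:**
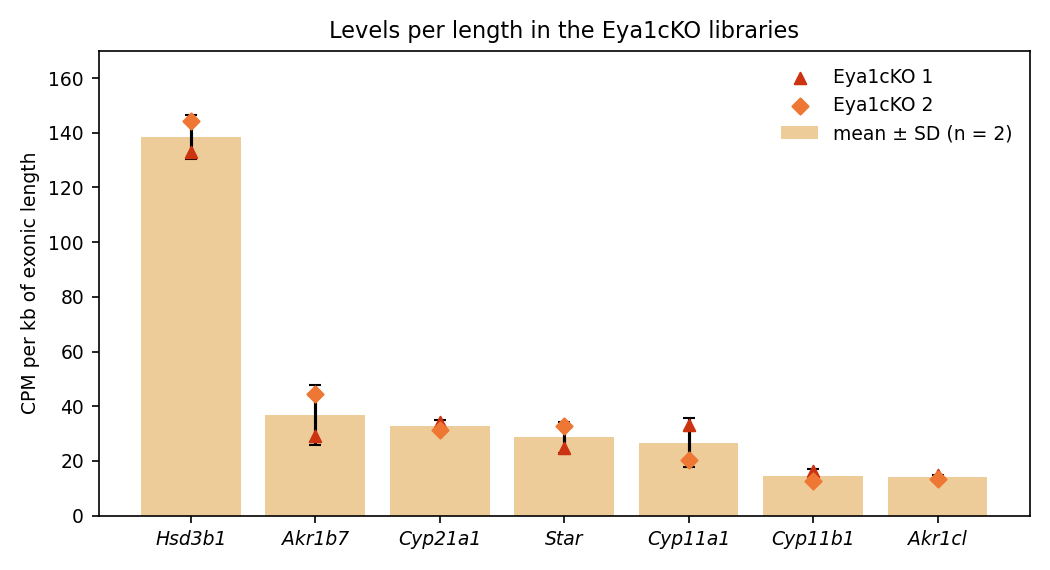
Level in CPM per kb of exonic length (y axis, from 0) of the 7 genes above the limit of detection in the *Eya1*cKO libraries, as bars for the mean, error bars for the SD (n = 2) and 1 point per library. *Hsd3b1* stands at 139 CPM per kb, apart from *Akr1b7*, *Cyp21a1*, *Star* and *Cyp11a1* between 26.7 and 36.9, and *Cyp11b1* and *Akr1cl* lie near 14.

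The composition of the set shifted with genotype. *Star* made up 64.0% and 47.5% of the reads of the 10 genes in the control libraries, but 13.9% and 18.7% in the *Eya1*cKO libraries. *Hsd3b1* made up 1.11% and 2.19% in the control libraries, against 33.7% and 37.1% in *Eya1*cKO. The exact binomial 95% intervals of the *Star* share were 60.1% to 67.8% and 43.6% to 51.5% in control and 13.4% to 14.4% and 18.0% to 19.4% in *Eya1*cKO, so libraries of the same genotype also differed by more than counting error. *Akr1b7* made up 22.7% and 36.4% in the control libraries, against 5.11% and 7.94% in *Eya1*cKO, although its level was higher there. These intervals, like those that follow, cover counting error only, because reads copied from one molecule by PCR are not independent.

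Between the *Eya1*cKO libraries, which hold cells of the same pool, the genes did not keep a fixed ratio. *Cyp11a1* was 1.63 times higher in *Eya1*cKO 1 (log2 ratio 0.71, 95% counting interval 0.62 to 0.79). *Cyp11b1* was also higher there (0.38, 0.25 to 0.52). In the other direction, *Akr1b7* had a log2 ratio of -0.61 (-0.75 to -0.48) and *Star* one of -0.41 (-0.49 to -0.32). The *Star* and *Cyp11a1* intervals lie far apart although their proteins act in consecutive steps. *Hsd3b1* (-0.12), *Cyp21a1* (0.13) and *Akr1cl* (0.13) were close to even. Among the 6999 genes with at least 500 reads in both *Eya1*cKO libraries, the log2 ratio ran from -0.68 at the 5th to 0.59 at the 95th percentile, so *Cyp11a1* lay just outside this range and the other 6 inside it. With 1 library on each side no test was made. Between the controls, *Akr1b7* had a log2 ratio of -0.60 (-0.91 to -0.30), *Star* of 0.51 (0.29 to 0.73) and *Cyp11a1* of 1.07 (0.36 to 1.81) for control 1 over control 2.

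**Figure D3:**
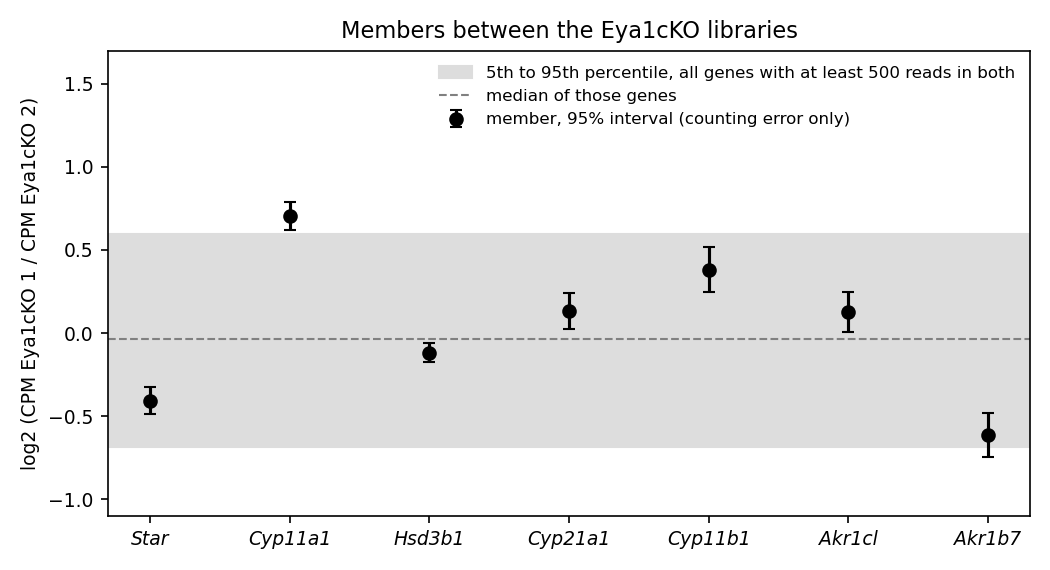
Log2 ratio of CPM in *Eya1*cKO 1 over *Eya1*cKO 2 (y axis) for the 7 genes with enough reads, with 95% intervals for counting error, over a grey band for the 5th to 95th percentile of all genes with at least 500 reads in both libraries (-0.68 to 0.59) and a dashed line at their median. *Cyp11a1* at 0.71 lies above the band, and *Star* at -0.41 and *Akr1b7* at -0.61 lie below 0 with intervals that exclude it.

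Genes that serve the pathway without being among the 10 were then tested, from lists drawn up with earlier results known, and 72 of the 89 found in the annotation passed the filter. Of these, 15 (20.8%) were higher and 2 (2.78%) lower in *Eya1*cKO by edgeR's adjusted p, beside 5.15% and 4.41% of all genes. Of the 15, *Mrap* and *Kcnk9* passed the low-count filter only through their *Eya1*cKO libraries, so they are described with no p-value and 13 calls remain. The 20.8% includes *Mrap* and *Kcnk9*. Since the lists were drawn up with earlier results known, nothing is read from this share. The median log2 fold change of the 72 tested genes, called or not, was 0.28 against 0.02 over all genes. No call of these genes held when either control library was left out, with adjusted p up to 0.66, and the lone control was then assumed to vary as the *Eya1*cKO libraries do.

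Cholesterol supply changed at 1 gene of 10 tested. *Scarb1*, the receptor through which steroidogenic cells take up cholesterol esters from HDL, rose from 1640 and 1699 reads to 4891 and 3281, a log2 fold change of 2.13 (SE 0.13, edgeR adjusted p = 0.000375). The other 9 genes, among them the LDL receptor and genes of ester storage and lysosomal release, did not pass the test, and the median of the list was 0.15. Of 7 genes of electron transfer, the mitochondrial pair that feeds *Cyp11a1* and *Cyp11b1* rose. *Fdxr*, ferredoxin reductase, went from 381 and 366 reads to 1833 and 1702, a log2 fold change of 3.10 (SE 0.21, edgeR adjusted p = 0.000667). *Fdx1*, ferredoxin, went from 602 and 584 reads to 1127 and 752, a log2 fold change of 1.51 (SE 0.22, edgeR adjusted p = 0.0095). The other 5, which include the microsomal donors of *Cyp21a1* and *Cyp17a1*, did not pass edgeR's adjusted threshold, while DESeq2's adjusted p called 3 of the list higher.

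Trophic signalling had 6 of 11 tested genes higher and 0 lower by edgeR (7 and 0 both at an unadjusted p under 0.05 and by DESeq2's adjusted p). *Mc2r*, the ACTH receptor, had 122 and 34 reads in the control libraries and 700 and 394 reads in the *Eya1*cKO libraries, with a log2 fold change of 3.65 (SE 0.52, edgeR adjusted p = 0.0086). *Mrap*, the accessory protein that brings this receptor to the cell surface, had 0 and 5 reads in the controls against 315 and 264. The ACTH receptor and its partner were thus both well above their control libraries, though the fold of each moved with the control left out, between 2.94 and 4.87 for *Mc2r* and from 6.68 upwards for *Mrap* on the log2 scale. The background potassium channel genes *Kcnk3* and *Kcnk9*, whose products set the membrane potential of adrenocortical cells, had log2 fold changes of 4.09 (SE 0.32, edgeR adjusted p = 0.0011) and 5.32 (SE 0.82), with 3 and 14 control reads for *Kcnk9*. Without control 1 the change of *Kcnk9* was 4.64, and without control 2 those of *Kcnk9* and *Kcnk3* were 6.71 and 4.68. *Agtr1a*, an angiotensin II receptor, had 79 and 80 reads in the control libraries and 556 and 146 reads in the *Eya1*cKO libraries, for a log2 fold change of 2.98 (SE 0.68, edgeR adjusted p = 0.041) that fell to 1.91 without *Eya1*cKO 1. Its paralog *Agtr1b* had 1 read in all libraries together. *Gnas*, the stimulatory G protein subunit, changed by 0.44 (SE 0.09, edgeR adjusted p = 0.034). The calls of *Agtr1a* and *Gnas* were lost without the low-count filter, in the legacy edgeR fit and with a replicate block, where their highest adjusted p were 0.081 and 0.11.

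Of 12 transcription factors of the adrenal and gonadal lineages, 3 were higher and 1 lower. *Nr5a1*, the nuclear receptor (steroidogenic factor) that binds the promoters of most steroidogenic genes, had 65 and 34 reads in the control libraries and 1480 and 1121 reads in the *Eya1*cKO libraries. Its level was 1.38 ± 0.674 CPM and 64.7 ± 1.13 CPM (SD, n = 2), a log2 fold change of 5.56 (SE 0.34, edgeR adjusted p = 0.0004). *Nr0b1*, which encodes the adrenal regulator Dax1, had 25 and 22 reads in the control libraries and 276 and 197 reads in the *Eya1*cKO libraries, for a log2 fold change of 4.17 (SE 0.64, edgeR adjusted p = 0.0095). *Cited2*, a coactivator needed for adrenal development, was higher by 0.53 (SE 0.10, edgeR adjusted p = 0.025), and *Nr2f2*, a nuclear receptor of mesenchyme, was lower by a log2 fold change of -0.36 (SE 0.06, edgeR adjusted p = 0.013). *Cited2* lost its call without the low-count filter and with a replicate block, with an adjusted p of up to 0.083. The remaining 8 did not pass edgeR's adjusted threshold, while DESeq2's adjusted p called 4 of the list higher and 2 lower.

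**Figure D4:**
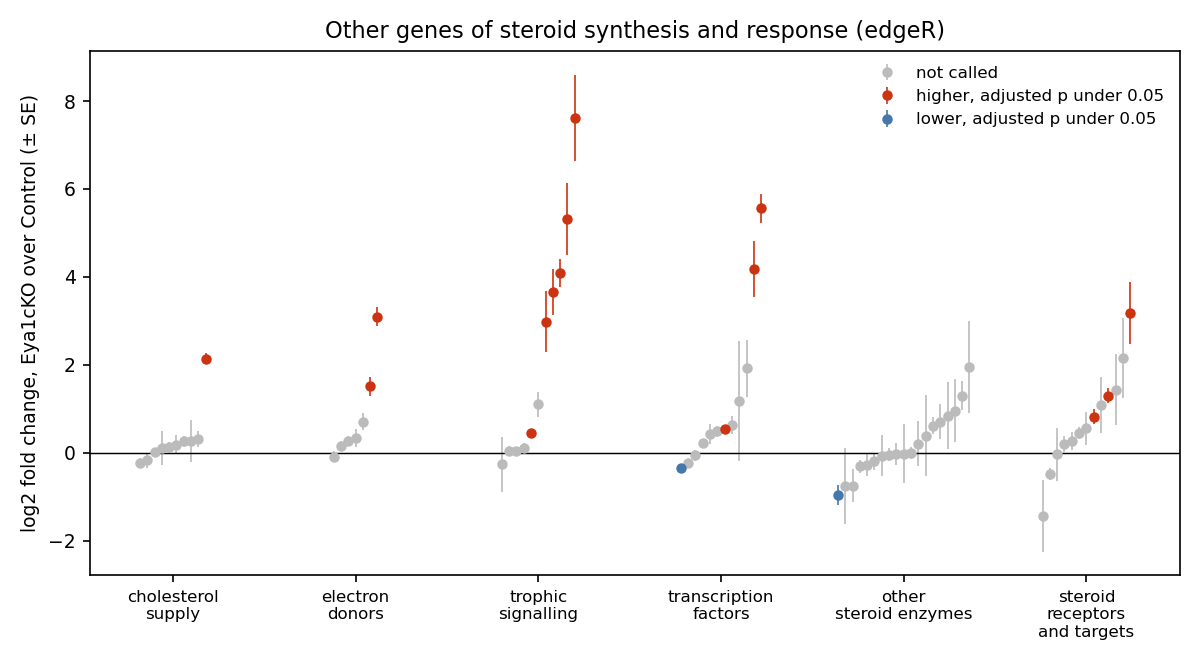
Log2 fold change of *Eya1*cKO over control with its SE (y axis) for the tested genes of each of 6 lists (x axis), with 1 point per gene in rising order and colours for the edgeR calls at an adjusted p under 0.05. The highest points are *Mrap* and *Nr5a1*, each of whose lists also holds genes near 0, and the list of other steroid enzymes has no gene called higher.

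The list of other enzymes of steroid metabolism had few calls. Of 34 found, 19 were tested by edgeR, 0 were higher and 1 was lower, with a median log2 fold change of -0.02. At an unadjusted p under 0.05, 2 were higher and 1 lower, and DESeq2's adjusted p called 1 in each direction. Both *Eya1*cKO libraries lay above both controls for 5 of the 34 enzymes and below them for 9. Among all genes tested, 25.3% had both *Eya1*cKO libraries above both controls, and the share below was not computed. Some of the 9 did not pass the low-count filter and had no read in *Eya1*cKO. The enzymes above both controls included *Akr1b8* (log2 fold change 1.30, SE 0.33) and *Hsd3b2* (1.95, SE 1.04), neither of which passed edgeR's test. The gene that was lower was *Hsd11b2*, which inactivates corticosterone, with 1372 and 1555 reads in the control libraries and 416 and 419 reads in the *Eya1*cKO libraries (log2 fold change -0.96, SE 0.23, edgeR adjusted p = 0.047). This call was lost with library totals alone, without the low-count filter, in the legacy fit and with a replicate block, with an adjusted p of up to 0.13. *Hsd17b3*, *Srd5a2*, *Akr1c6*, *Akr1c20* and *Akr1c21*, which act on androgens or on progestins and their metabolites, had 3 or fewer reads in every library. Among 13 steroid receptors and glucocorticoid-responsive genes, 3 were higher. *Sgk1*, a kinase gene induced by corticosteroids, rose from 1079 and 1281 reads to 1659 and 1538, a log2 fold change of 1.29 (SE 0.17, edgeR adjusted p = 0.007). *Nr3c1*, the glucocorticoid receptor, was higher by 0.81 (SE 0.17, edgeR adjusted p = 0.031), and *Esr1*, an oestrogen receptor, by 3.18 (SE 0.71, edgeR adjusted p = 0.035). The calls of *Nr3c1* and *Esr1* were lost without the low-count filter, in the legacy fit and with a replicate block, with adjusted p of up to 0.11 and 0.081. The other 10 did not pass edgeR's adjusted threshold, while DESeq2's adjusted p called 4 of the list higher and 1 lower. Among the 10 were the glucocorticoid-responsive genes *Fkbp5* (log2 fold change -0.48, SE 0.14), *Tsc22d3* (0.21, SE 0.18) and *Zbtb16* (-0.04, SE 0.60). The median of the list was 0.56.

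Letters bound by the regulators above were searched on both strands of the 250 bases before each start in RefSeq's table, which holds 5 of the 10 genes. The *Nr5a1* site CAAGGNCA occurred in 1 of the 5, *Akr1cl*, and in 6.71% of all 32851 promoter windows. Its letters are in capitals in the window of *Akr1cl*, chr1:65032760-65033009 on the minus strand, and they lie 191 to 184 bases before the start.
Akr1cl: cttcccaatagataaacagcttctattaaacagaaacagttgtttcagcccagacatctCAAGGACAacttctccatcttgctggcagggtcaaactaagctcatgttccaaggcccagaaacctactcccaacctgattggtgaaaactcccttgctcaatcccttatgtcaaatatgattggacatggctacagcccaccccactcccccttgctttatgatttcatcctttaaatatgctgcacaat
The shorter core AGGTCA, searched after the windows were seen, occurred in the windows of *Cyp11a1* and *Akr1b7* and in 16.3% of all. On the given strand alone it occurred in *Cyp11a1* and not in *Akr1b7*. In *Cyp11a1* it lies 28 to 23 bases before the downstream of the annotated starts, in the 120 bases chr9:58014832-58014951 on the plus strand, with the match in capitals.
Cyp11a1: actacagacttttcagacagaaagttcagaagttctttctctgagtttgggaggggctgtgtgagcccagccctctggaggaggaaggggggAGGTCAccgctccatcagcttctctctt
The TATA box TATAAA and the cAMP response element TGACGTCA were in none of the 5 and in 13.6% and 1.79% of all windows. *Hsd3b1*, the gene with the largest change, held none of the 4. A match is a description of the letters and not of a bound site.

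Marker genes of the cell types that the dissected tissue could hold differed in direction. Some lists were higher in *Eya1*cKO like the set, and others were lower, mixed or not called. Their part in the result was not tested. The label kidney was borne out by nephron progenitor genes, of which all 8 (*Six2*, *Pax2* and *Sall1* among them) were detected in every library and all 8 were lower in *Eya1*cKO, with a summed level of 1726 to 1735 CPM in control and 341 to 366 CPM in *Eya1*cKO. *Eya1* itself, the deleted gene, had 6612 and 6420 reads in the control libraries and 377 and 219 reads in the *Eya1*cKO libraries. Of 8 adrenal cortex markers outside the 10 genes, 6 were higher by edgeR (*Mrap* among them) and *Inha* and *Soat1* were not called, while DESeq2 called 7 of them, and the sum went from 140 to 151 CPM in control to 457 to 487 CPM in *Eya1*cKO. All but *Inha* of these markers also stand in the lists above. Of 12 markers of chromaffin cells, the catecholamine-producing cells of the adrenal medulla, 10 were higher, of which 5 (*Dbh* and *Th* among them) passed the filter only through *Eya1*cKO, and their sum went from 18.0 to 20.5 CPM up to 586 to 629 CPM. *Dbh* (11, 35, 1522 and 1579 reads in the 4 libraries, controls first), *Chga* (44, 52, 3478 and 3001) and *Chgb* (68, 190, 4247 and 3132) were the most abundant of them. *Pnmt*, the adrenaline-forming enzyme, had 13, 44, 47 and 1 reads and was not called.

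Gonadal markers were low. Of 10, 4 were tested by edgeR and 0 were called (1 higher at an unadjusted p under 0.05, and 1 higher by DESeq2's adjusted p), and their sum was 2.64 to 3.61 CPM in control and 4.34 to 7.01 CPM in *Eya1*cKO. *Dhh*, a ligand gene of Sertoli and Schwann cells, had 14 and 3 reads in the controls and 25 and 109 in the *Eya1*cKO libraries, a log2 fold change of 3.81 (SE 1.25) that did not pass. *Insl3*, a product of fetal Leydig cells, had 14 and 8 reads in control and 0 in both *Eya1*cKO libraries, but 64.8% of its exonic length overlaps another gene on the same strand. Haemoglobin genes were at or near 0, with *Hba-a1*, *Hba-a2* and *Hbb-bs* without a read, and the 8 blood markers summed to 12.8 to 16.2 CPM in control and 12.4 to 13.2 CPM in *Eya1*cKO, nearly all from *Ptprc*. Of the 6 liver markers 3 were tested and 1 was higher by edgeR, *Afp* (3 of the list by DESeq2), and their sum of 4.95 to 4.97 CPM in control and 23.0 to 28.4 CPM in *Eya1*cKO was small beside that of the set, with *Ttr* at 0. By edgeR, podocyte and endothelial markers were higher at 6 of 6 each (505 to 515 against 2352 to 2357 CPM, and 521 to 538 against 930 to 995 CPM), ureteric bud markers were lower at 2 of 6 (231 to 239 against 141 to 144 CPM), and renal stroma markers were higher at 2 and lower at 1 of 6 (711 to 727 against 952 to 957 CPM).

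**Figure D5:**
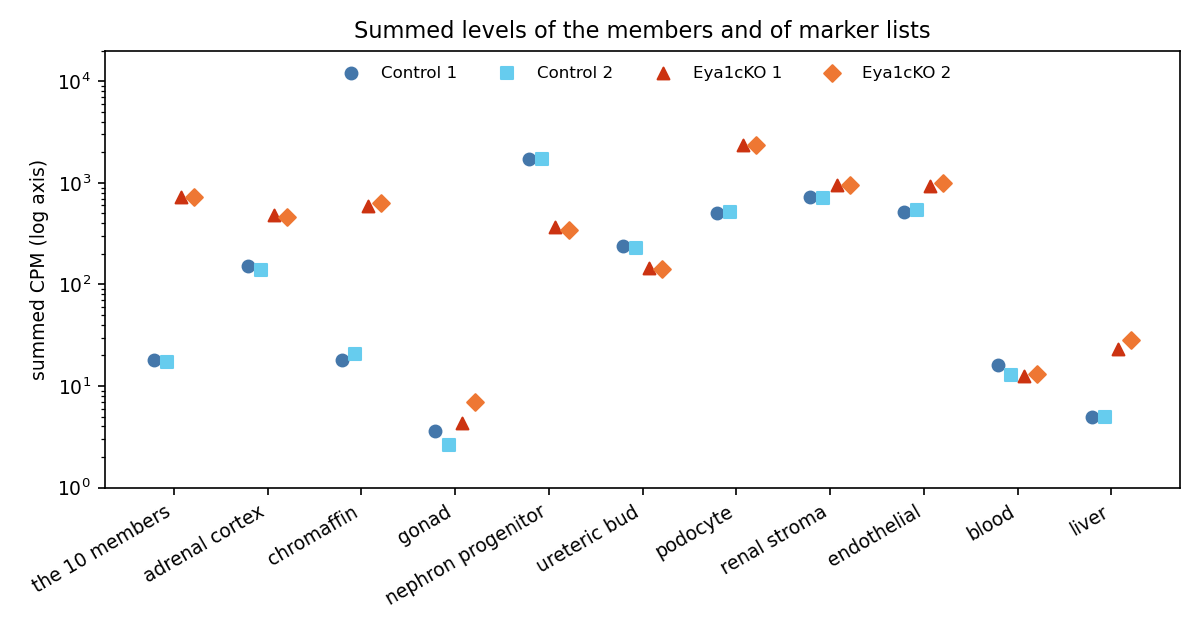
Summed CPM on a log axis (y axis) of the 10 genes and of 10 marker lists (x axis) in each library, with 1 point per library. The set and the chromaffin list have the widest gaps between genotypes (17.1 to 18.1 against 720 to 731 CPM, and 18.0 to 20.5 against 586 to 629 CPM), the gonad and blood lists have little or none, and the nephron progenitor list lies lower in *Eya1*cKO.

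The genes whose pattern over the 4 libraries was most like the median of the 7 were named by the Euclidean distance of centred log2 CPM. The 8 nearest outside the set were *Chga* (distance 0.55), *Th* (0.66), *Cyp21a2-ps* (0.84), *Scg2* (0.88), *Mhrt* (1.0), *Gm12382* (1.03), *Mrap* (1.04) and *Dbh* (1.09). *Th*, the first enzyme of catecholamine synthesis, had 9 and 14 reads in the control libraries and 1075 and 950 reads in the *Eya1*cKO libraries. *Scg2*, a granin gene of secretory vesicles, had 4 and 5 reads in the control libraries and 542 and 579 reads in the *Eya1*cKO libraries. Of the 8, *Chga*, *Th*, *Dbh* and *Scg2* are genes of catecholamine cells, *Mrap* belongs to the ACTH response, and *Cyp21a2-ps*, *Mhrt* and *Gm12382* had no read in control and 80 to 102 in each *Eya1*cKO library. Within the set *Cyp11b1* (0.62), *Akr1cl* (0.63) and *Cyp11a1* (0.91) lay as near to this median, and *Cyp21a1* (1.63), *Hsd3b1* (2.88), *Star* (3.26) and *Akr1b7* (3.64) farther from it. All distances rest on 4 libraries that split by genotype. Of the 8 nearest, all but *Chga* passed the low-count filter only through their *Eya1*cKO libraries. The median is that of genes chosen by this comparison, so the list is a description and nothing is read from it.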

How the data were processed

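The authors sequenced strand-specific, randomly primed libraries and deposited the number of reads on each gene of each library as raw counts, without normalization. The submitters' processing notes name HISAT2, HTSeq, DESeq2 and the build mm10, and the paper names Ensembl release 90. Tool versions and the strand setting of the counting are not given in the sources used here. HTSeq's lines for reads on no gene, ambiguous, unaligned or multiply aligned reads (31.8% to 46.1% of all records) were left out of library sizes. Symbols were matched for 52403 of 52636 identifiers, and coordinates and lengths come from GENCODE M21 on GRCm38.

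Counts were analysed with edgeR 4.0.16 in R 4.3.3 (TMM scaling, filterByExpr with a minimum count of 10, glmQLFit and glmQLFTest with legacy = FALSE on genotype, Benjamini-Hochberg adjustment over 19041 genes, threshold 0.05). The SE of a log2 fold change is its size divided by the square root of the F statistic. Distances used log2 CPM with a prior count of 2. Intervals are exact (scipy 1.17.1) and alignments were made with Biopython 1.88. The limit of detection was 3 counts.

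The 10 genes and all lists were chosen with earlier results of these data known. Named genes were all 10, the called genes of each supporting list (at most 6 a direction), list genes with at most 3 reads in all libraries, up to 3 of each marker list by mean CPM and the 8 nearest profiles. Other names (*Hsd3b2*, *Hsd3b3*, overlapping or copied genes, *Akr1b8*, *Fkbp5*, *Tsc22d3*, *Zbtb16*, *Inha*, *Soat1*, *Pnmt*, *Insl3*, *Dhh*, *Ptprc* and genes at 0) were chosen after their values were seen. Protein identity could not be run, and coding sequences were aligned instead. Alternatives were DESeq2 1.42.0 (size factors and Wald test), library totals, no filter, at least 10 counts in every library, the legacy and robust fits, a replicate block, each library left out, and AGGTCA, added after seeing the data.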

Additional observations from a re-analysis of the deposited data

How the results depend on the processing

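The log2 fold changes of the 7 tested steroid synthesis genes and the 17 called supporting genes (24 genes, 12 alternative fits, 283 values) kept their direction, and those of other named genes were not refitted. The genes called among all tested were 1820 in the fit reported, 1055 without the low-count filter, 1096 with the legacy fit, 3102 with DESeq2's Wald test and 23 to 7925 when a library was left out. Requiring at least 10 counts in every library left 4 of the steroid synthesis genes to test, and all 4 were called. When a library was left out, 1 to 7 were called, with the 1 in each refit without a control. The supporting genes called higher were 15, 10 without the filter, 11 with the legacy fit, 17 at 10 counts in every library, 20 with DESeq2 and 0 to 32 when a library was left out. Those called lower were 2, 1 with library totals alone, 1 without the filter, 1 with the legacy fit, 4 with DESeq2, and 0 to 6 when a library was left out. With a replicate block the counts were 621 of all genes, 7 of the steroid synthesis genes, 10 supporting genes higher and 1 lower, but deviations of libraries with the same number had a correlation of 0.0062, so the number does not pair them. With 2 libraries a genotype, no library could be tested as standing apart. Low control counts limit the folds of *Hsd3b1*, *Cyp21a1*, *Akr1cl* and *Mrap*.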

Other observations

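A few genes that lie near the steroid synthesis genes were also higher in *Eya1*cKO. Within 100 kb of the 10 genes, a window chosen after the data were seen, 43 other genes were tested, 7 were higher and 3 lower. Of the 7, *Cyp21a2-ps*, *Gm13858* and *Ly6d* passed the low-count filter only through their *Eya1*cKO libraries, so no share is compared with that of all genes. *Ly6d*, a gene for a small GPI-anchored surface protein of the Ly6 family, lies 70.5 kb from *Cyp11b1* and had 2 and 0 reads in the control libraries and 893 and 764 reads in the *Eya1*cKO libraries. *Lynx1*, of the same family and 81.1 kb from *Cyp11b1*, had 50 and 56 reads in the control libraries and 641 and 487 reads in the *Eya1*cKO libraries, for a log2 fold change of 4.26 (SE 0.42, edgeR adjusted p = 0.0027). *Ly6e*, 98.7 kb from *Cyp11b2*, had 1355 and 1339 reads in the control libraries and 2143 and 1352 reads in the *Eya1*cKO libraries, for a log2 fold change of 1.22 (SE 0.17, edgeR adjusted p = 0.0078). Around *Cyp11a1*, *Ubl7* was higher by 0.79 (SE 0.14, edgeR adjusted p = 0.019) and *Stra6*, a receptor gene of retinol uptake, was lower with a log2 fold change of -1.09 (SE 0.23, edgeR adjusted p = 0.03). Near *Akr1cl*, *Plekhm3* was higher by 1.37 (SE 0.20, edgeR adjusted p = 0.0091). None of the genes tested within 100 kb of *Star*, *Hsd3b1* or *Hsd3b6* was called. The remaining calls were *Cyp21a2-ps* and *Gm13858*, both without a read in control, which were higher, and *Zbtb12* and *Arl3*, which were lower.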
